A study of Mus musculus with 4 samples.

Results

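Chondrocyte barcodes that carried *Barx1*, *Pthlh* or *Sfrp5* UMIs and little *Matn1* were followed in single-cell RNA-seq of mouse hindlimbs at E14.5. They were selected on measured UMI counts (a UMI marks a single captured RNA molecule). A barcode needed at least 3000 UMIs and at most 10% mitochondrial UMIs, and 3640 barcodes of the 4 libraries passed. A chondrocyte barcode had more UMIs of *Acan*, *Col9a1*, *Col9a2* and *Col9a3* together than of *Col1a1*, *Col1a2* and *Col3a1* together, which held for 1710 barcodes. Of these, 97 had a sum of *Barx1*, *Pthlh* and *Sfrp5* of at least 2 UMIs with fewer than 3 of *Matn1*, 5 of *Col10a1*, 2 of *Ihh* and 3 of *Gdf5*. They are called the Barx1-Pthlh barcodes here. Library tdT+ replicate 1 held 20, tdT+ replicate 2 held 45, tdT- replicate 1 held 13 and tdT- replicate 2 held 19.

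Every embryo carried *Gli1*CreER (a tamoxifen-dependent Cre from the *Gli1* locus), a Tet-responsive p21 transgene at *Tigre* (TRE-p21) and *R26*LSL-tdT, a Cre-dependent tdTomato reporter. Experimental embryos (Exp, *Pan-Cart-p21* MOE) also carried *Col2a1-rtTA*, which drives the p21 transgene in cartilage with doxycycline, and control embryos (Ctl) lacked it. All embryos were exposed to doxycycline from 2 days before collection (1 mg/ml in water with 0.5% sucrose, and in food) and to tamoxifen 1 day before it (120 µg/g). Sorting then split the limb cells by tdTomato, giving a tdT+ and a tdT- library per collection. Each library mixed Exp and Ctl cells of opposite sex. *Xist* and Y-linked UMIs therefore assigned the genotype of 86 of the 97 barcodes, and the other 11 were left out of genotype comparisons, 1 of them with UMIs of both sexes. Exp replicate 1 was male and Exp replicate 2 female, and the study's methods list a single embryo for the latter. Within a collection (replicate 1 or 2), the tdT+ and tdT- cells of a genotype came from the same embryos, so genotype and sex cannot be told apart within a library, while they were crossed between the collections.

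The resting zone is the layer of round, slowly dividing chondrocytes at the end of a growing cartilage. Its cells make PTHrP, encoded by *Pthlh*, which acts on *Pth1r* in deeper chondrocytes and holds back their hypertrophy, while *Ihh* from prehypertrophic cells feeds back on *Pthlh* through the hedgehog pathway. Chondrocytes leaving that layer flatten into columns and make more matrix, matrilin-1 (*Matn1*) among it. At E14.5 these zones are only being laid down. *Barx1* (GRCm38, chromosome 13, 48662998 to 48666507, plus strand) encodes a homeobox factor of early limb mesenchyme and joint regions. *Pthlh* lies on chromosome 6 from 147252101 to 147264183, minus strand. *Sfrp5*, a secreted Wnt antagonist, lies on chromosome 19 from 42197971 to 42202252, minus strand.

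*Barx1* was the gene through which most barcodes entered. It had UMIs in 90 of the 97, *Pthlh* in 50 and *Sfrp5* in 10. By combination, 42 barcodes had *Barx1* without the others, 39 had *Barx1* with *Pthlh*, 6 had *Pthlh* without the others and 4 had all 3 genes. The sum had a median of 4 UMIs and a maximum of 38, and 27 barcodes stood at the limit of 2. Of all 1710 chondrocyte barcodes, 623 had a sum of at least 2, and 509 of those were turned away by *Matn1* (with or without another limit) and 17 by *Gdf5* alone. Another 287 barcodes with such a sum were not chondrocyte barcodes.

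The barcodes on both sides of the limits were alike in depth where *Matn1* was the limit and unlike where the sum was. The 28 members with 2 *Matn1* UMIs had a median of 20749.5 UMIs per barcode and *Col2a1* at 3679 CPM (UMIs per 1000000 summed UMIs), and the 18 barcodes turned away with 3 *Matn1* UMIs had 20287.5 UMIs and 2928 CPM. *Pax9* was at 55.5 CPM in the former and 20.0 CPM in the latter, and *Snorc* at 194 and 115 CPM. The 27 members with a sum of 2 had a median of 11056 UMIs, and the 56 barcodes turned away with a sum of 1 had 7054.5 UMIs. *Snorc* was at 91.2 CPM in the former and 249 CPM in the latter, the opposite order to that at the *Matn1* limit. *Pax9* was at 14.7 and 16.6 CPM there, and *Col2a1* at 4870 and 3253 CPM. *Comp* was at 11.4 and 11.1 CPM inside and outside the *Matn1* limit, and at 5.89 and 71.3 CPM inside and outside the sum limit.

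Depth was close to that of the Matn1 barcodes, the 1146 chondrocyte barcodes with at least 3 *Matn1* UMIs that passed the other limits. Median depth was 20547 UMIs in the Barx1-Pthlh barcodes and 21646.5 UMIs in the Matn1 barcodes with a median of 5037 and 5074.5 genes and 2.38% and 2.39% mitochondrial UMIs. The other groups differed more, with 5308 UMIs in the 227 barcodes that had too few UMIs of any of these genes, 40639.5 in 190 barcodes past the *Col10a1* or *Ihh* limit and 27598 in 50 past the *Gdf5* limit. The exception by library was tdT- replicate 1, where the medians were 22079 and 12109 UMIs. No Barx1-Pthlh barcode shared its sequence with a kept barcode of another library, and 10 of the 3640 did.

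The 3 selecting genes are given as a description only. *Barx1* stood at 212 and 308 CPM in the tdT+ libraries and 208 and 289 CPM in the tdT- libraries, against 78.02 ± 10.96 CPM (SD, n = 4 libraries) in Matn1 barcodes. *Pthlh* stood at 63.5, 58.2, 66.4 and 34.8 CPM in the same order, against 15.4 ± 3.45 CPM. *Sfrp5* was no higher than in Matn1 barcodes, with 9.33 ± 6.73 CPM over 24 UMIs against 9.28 ± 1.05 CPM. *Matn1* itself fell from 1354 ± 89.8 CPM to 46.6 ± 16.3 CPM by selection.

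The remaining markers that came with the resting-zone name were not higher. *Cytl1*, a secreted protein of early chondrocytes, stood at 167, 189, 477 and 169 CPM, against 430, 299, 438 and 307 CPM in Matn1 barcodes. It fell by 0.76 ± 0.18 on the log2 scale (SE, edgeR adjusted p = 0.031) relative to Matn1 barcodes, a call kept in only 1 of 4 fits that left out a library. Only tdT- replicate 1 had the higher value in the Barx1-Pthlh barcodes. *Hes5*, a Notch target, stood at 18.8, 3.82, 41.5 and 13.4 CPM over 27 UMIs, against 40.0 ± 3.75 CPM (log2 difference -1.57 ± 0.41, adjusted p = 0.058). *Gdf10*, a BMP-related ligand, fell by 0.73 ± 0.18 (adjusted p = 0.048), a call also kept in 1 of 4 such fits. *Ucma*, a secreted protein of the upper growth plate, was nearly absent, with 4 UMIs in all 97 barcodes. Of 11 resting-zone genes outside the rule that could be tested, 0 were higher, 2 were lower than in Matn1 barcodes (*Cytl1* and *Gdf10*) and 0 differed from all other chondrocyte barcodes by edgeR, with 7 at an unadjusted p under 0.05 in either comparison. DESeq2 called 0 in both. The markers that named the group thus split, with *Barx1* and *Pthlh* high by selection and *Cytl1* and *Hes5*, outside the rule, not higher. These barcodes are therefore called by their leading genes.

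Chondrocyte identity itself was present. *Sox9*, the master regulator of cartilage, stood at 906 and 802 CPM in the tdT+ libraries and 697 and 618 CPM in the tdT- libraries, and its mean in Matn1 barcodes was 714 CPM. *Sox5* was at 835, 1095, 1104 and 1166 CPM, with a mean of 1039 CPM in Matn1 barcodes. *Sox6*, the partner of *Sox5*, rose in the Barx1-Pthlh barcodes, with 1643 ± 364 CPM against 1030 ± 116 CPM (log2 0.58 ± 0.10, adjusted p = 0.0041).

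Markers of other cell types were low. The summed level of 9 immune genes was 0, 0.954, 0 and 2.68 CPM over the 4 libraries in the order above, and 7 of the 9 had no UMI, *Ptprc* among them. The 8 muscle genes summed to 4.71, 4.77, 16.6 and 8.03 CPM with 3 at 0, *Myod1* among them, and their most abundant gene was *Actc1*. The 6 endothelial genes summed to 42.4, 134, 145 and 74.9 CPM, led by *Pecam1* at a mean of 84.1 CPM, while *Cdh5* and *Kdr* were at 0 in every library. The 7 erythroid genes summed to a mean of 12.4 CPM with 2 at 0 and *Alas2* most abundant, and the 6 epidermal genes to 9.62 CPM with 2 at 0 and *Epcam* most abundant. Tendon, perichondrium and joint interzone genes reached higher sums. The 13 joint interzone genes summed to 1911, 1973, 1465 and 1573 CPM, against a mean of 996 CPM in Matn1 barcodes. The 13 perichondrium and fibroblast genes summed to 1278, 1165, 1233 and 992 CPM with none at 0, led by *Fbn2* at 488 CPM, against a mean of 1028 CPM in Matn1 barcodes. The 7 tendon genes summed to 280, 276, 307 and 203 CPM, led by *Tnc* at 129 CPM, against a mean of 203 CPM, and *Kera* was at 0. Their part in the differences below was not tested.

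To ask how these barcodes differed from other chondrocytes, UMIs were summed per library and class, and the 4 libraries were used as blocks. The 14 genes of the rule were left out of every count. Against all other chondrocyte barcodes, 277 of 13787 genes rose (2.01% of those tested) and 469 fell (3.4%). Against the Matn1 barcodes, 183 of 13261 genes rose (1.38%) and 208 fell (1.57%). With library totals in place of TMM scaling, 396 rose and 301 fell against all others, and 244 rose and 163 fell against Matn1 barcodes, so the balance of the directions turned with the scaling. The counts moved with the libraries. Without tdT+ replicate 2, which gave 45 of the 97 barcodes, 202 genes were called against all others and 63 against Matn1 barcodes. Without tdT+ replicate 1 the counts were 370 and 170, without tdT- replicate 2 they were 293 and 219, and without tdT- replicate 1 they were 922 and 515.

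*Pax9* and *Krt17* rose most in both comparisons among the named genes. *Pax9* (chromosome 12, 56691767 to 56712822, plus strand), a paired-box factor of limb and sclerotome mesenchyme, stood at 89.4, 103, 49.8 and 69.6 CPM, against 5.83, 7.07, 9.16 and 6.83 CPM in Matn1 barcodes. Every library of the former lay above every library of the latter, and the log2 fold change was 3.41 ± 0.27 (adjusted p = 1.1e-05). *Krt17* (chromosome 11, 100256217 to 100261029, minus strand), an intermediate filament keratin better known from epithelium, stood at 14.1, 120, 120 and 77.6 CPM, against 4.42, 8.42, 5.27 and 7.71 CPM (log2 3.46 ± 0.32, adjusted p = 3.0e-05). Its level in tdT+ replicate 1, on 6 UMIs, was far under the other 3 libraries but above the Matn1 barcodes of every library. *Krt5*, the basal epidermal keratin, had no UMI in the Barx1-Pthlh barcodes and *Krt14* had 1.

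Further genes rose evenly over the libraries. *Adamtsl1*, a secreted ADAMTS-like matrix protein, stood at 278, 341, 378 and 334 CPM, against 95.01 ± 11.18 CPM (log2 1.72 ± 0.14, adjusted p = 1.3e-05). *Foxp1*, a forkhead repressor, stood at 506, 431, 585 and 535 CPM, against 195 ± 30.1 CPM (log2 1.32 ± 0.12, adjusted p = 3.3e-05). *Tgfbi*, a TGF-beta-induced adhesion protein of the matrix, stood at 273, 319, 320 and 276 CPM, against 106 ± 4.01 CPM (log2 1.40 ± 0.13, adjusted p = 2.8e-05). These 3 genes kept their calls whichever library was left out. *Nfib*, a nuclear factor I gene, rose by 1.15 ± 0.11 on the log2 scale against all other chondrocyte barcodes (adjusted p = 3.7e-05).

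The 10 genes outside the rule that were most like the selecting genes, ranked by log2 fold change over all other chondrocyte barcodes with the same sign in 4 of 4 libraries and at least 20 CPM, began with *Pax9* (3.43) and *Krt17* (3.35). *Lin7a*, a PDZ scaffold protein (2.85), and *Hs3st3b1*, a heparan sulfate sulfotransferase (2.61), followed. *Cdh4*, a cadherin (2.19), *Plxna4*, a semaphorin receptor (2.10), *Il1rapl2*, an interleukin-1 receptor family member (2.10), the histone gene *Hist3h2ba* (2.08), *Pkhd1* (2.04) and the nuclear receptor *Rorb* (2.02) completed the list. *Il1rapl2* and *Rorb* kept their calls in 2 of the 4 fits that left out a library and *Cdh4* and *Hist3h2ba* in 3, while the other 6 kept theirs in all 4. *Il1rapl2* also spread widely, with 602, 483, 58.1 and 174 CPM.

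**Figure D1:**
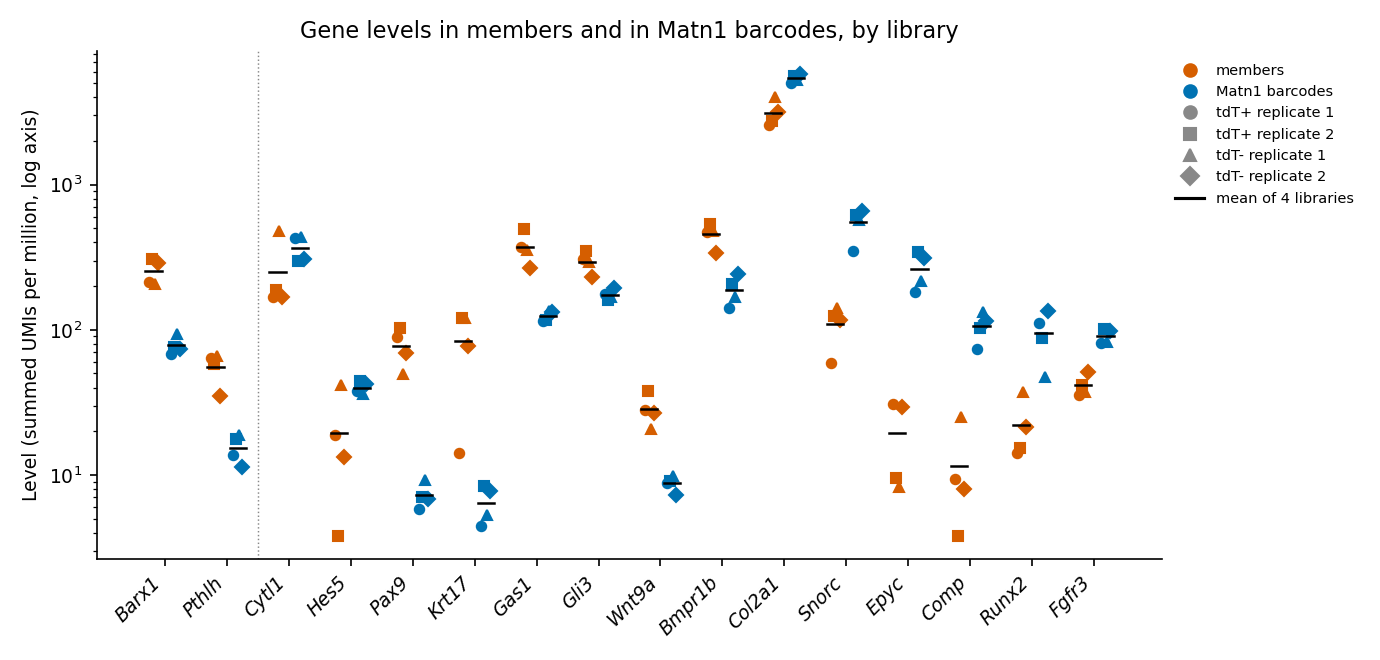
Levels of 16 genes in CPM (summed UMIs per 1000000, log axis) in the 97 Barx1-Pthlh barcodes (members, orange) and the 1146 Matn1 barcodes (blue), with a symbol per library and a bar at the mean of 4 libraries. *Barx1* and *Pthlh*, left of the dotted line, were used for selection. *Pax9* in members lies between 49.8 and 103 CPM and in Matn1 barcodes between 5.83 and 9.16 CPM, while *Comp* lies between 3.82 and 24.9 CPM in members and between 74.0 and 133 CPM in Matn1 barcodes.

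Most cartilage matrix genes were lower. Of 18 tested, 12 fell and 1 rose in either comparison, with a median log2 fold change of -0.87 against Matn1 barcodes (-0.02 over all genes tested) and -1.04 against all others (-0.03 over all genes). Leaving out a library left 9 to 12 lower against Matn1 barcodes. *Col2a1*, the main cartilage collagen, stood at 2576, 2767, 4030 and 3189 CPM, against 5035, 5578, 5292 and 5802 CPM. The groups did not overlap, and the log2 fold change was -0.89 ± 0.09 (adjusted p = 1.0e-04). Barcodes just outside the limits were low as well, at 2928 CPM with 3 *Matn1* UMIs and 3253 CPM with a sum of 1. *Snorc* (chromosome 1, 87470271 to 87475482, plus strand), a proteoglycan core protein of chondrocytes, stood at 58.8, 124, 141 and 118 CPM, against 351, 622, 570 and 654 CPM (log2 -2.43 ± 0.13, adjusted p = 3.2e-07).

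The falls of most size within this list were in *C1qtnf3*, *Epyc* and *Comp*. *C1qtnf3*, a secreted C1q-like protein, had 13 UMIs in all and stood at 2.35, 4.77, 8.30 and 13.4 CPM, against 108 ± 22.0 CPM (log2 -4.15 ± 0.28, adjusted p = 3.0e-06). *Epyc*, a small leucine-rich proteoglycan, stood at 30.6, 9.54, 8.30 and 29.4 CPM, against 264 ± 76.1 CPM (log2 -3.98 ± 0.31, adjusted p = 1.1e-05). *Comp*, a thrombospondin-family protein that bridges collagens, stood at 9.41, 3.82, 24.9 and 8.03 CPM, against 106 ± 24.8 CPM (log2 -3.66 ± 0.31, adjusted p = 1.4e-05). *Matn3*, a matrilin as is the selecting gene *Matn1*, fell by 2.09 ± 0.18 on the log2 scale (adjusted p = 2.0e-05). The gene of the list that rose was *Vcan*, the large proteoglycan of loose and precartilage matrix, with 408 ± 141 CPM against 207 ± 13.8 CPM (log2 0.88 ± 0.17, adjusted p = 0.013, kept in 1 of 4 fits without a library).

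Genes of later chondrocyte maturation were low. Against all other chondrocyte barcodes, which include those past the *Col10a1* or *Ihh* limit, 10 of 12 hypertrophic genes fell (5 to 9 when a library was left out) and 1 (*Ptch1*) rose, a call kept in 0 of 4 such fits. Against Matn1 barcodes 4 of 11 fell (*Runx2*, *Runx3*, *Cpa6* and the sulfate transporter *Slc26a2*) and 0 rose (median -1.21). With a library left out, 0 to 4 of them were lower in the latter. *Runx2*, which drives hypertrophy and bone formation, stood at 14.1, 15.3, 37.4 and 21.4 CPM, against 111, 87.3, 46.9 and 136 CPM in Matn1 barcodes (log2 -2.34 ± 0.30, adjusted p = 0.00064). *Cpa6*, a carboxypeptidase, fell by 2.86 ± 0.41 on the log2 scale (adjusted p = 0.001). *Fgfr3*, the receptor that restrains chondrocyte proliferation, stood at 35.3, 42.0, 37.4 and 50.8 CPM, against 90.4 ± 10.4 CPM (log2 -1.23 ± 0.18, adjusted p = 0.0016). *Pth1r*, the receptor for PTHrP, fell by 1.57 ± 0.21 against all others (adjusted p = 0.00048), and the difference from Matn1 barcodes was -0.69 ± 0.21 (adjusted p = 0.10). *Ebf1*, an early B-cell factor outside these lists, fell by 2.11 ± 0.18 (adjusted p = 1.3e-05).

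Of 16 hedgehog and PTHrP signalling genes tested, 5 rose and 0 fell against Matn1 barcodes (median 0.48). Against all others 6 rose, with *Ptch1* of the hypertrophic list counted here too, and 1 (*Pth1r*) fell (median 0.47). Leaving out a library left 1 to 5 higher in either comparison. Among the co-receptors, *Gas1* stood at 374, 496, 353 and 265 CPM, against 114, 117, 136 and 134 CPM (log2 1.49 ± 0.16, adjusted p = 0.00017), and no library overlapped. *Cdon* stood at 98.8, 103, 78.9 and 80.3 CPM, against 39.1 ± 4.26 CPM (log2 1.15 ± 0.18, adjusted p = 0.0020). Among the transcription factors, *Gli3*, mainly a repressor of the pathway, stood at 306, 351, 295 and 230 CPM, against 175 ± 13.7 CPM (log2 0.68 ± 0.14, adjusted p = 0.019), and *Gli2*, mainly an activator, rose by 0.88 ± 0.21 (adjusted p = 0.037). The *Gli3* and *Gli2* calls were each kept in 2 of 4 fits without a library.

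The genes that read out hedgehog activity were less clear. *Hhip*, a target that binds the ligand, stood at 23.5, 42.9, 4.15 and 24.1 CPM over 65 UMIs, against 8.34 ± 2.40 CPM (log2 1.48 ± 0.36, adjusted p = 0.042, kept in 1 of 4 fits without a library). In tdT- replicate 1 it was no higher than in Matn1 barcodes. *Ptch1*, the receptor and a target, stood at 254, 249, 299 and 259 CPM, against 180 ± 19.9 CPM, and the difference of 0.46 ± 0.13 had an adjusted p of 0.085. *Gli1*, the target whose locus drove the Cre, stood at 25.9, 26.7, 8.30 and 32.1 CPM, against 19.1, 17.6, 12.4 and 15.0 CPM (log2 0.49 ± 0.30, adjusted p = 0.49).

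Of 24 Wnt pathway genes tested against Matn1 barcodes, 7 rose and 2 fell (median 0.29), and against all others 6 of 25 rose and 2 fell (median 0.21). Between 1 and 7 were higher in either comparison when a library was left out. *Wnt9a*, a ligand of the joint interzone, stood at 28.2, 38.2, 20.8 and 26.8 CPM, against 8.78 ± 1.09 CPM (log2 1.67 ± 0.31, adjusted p = 0.0079). *Sfrp2*, a secreted Wnt modulator, stood at 294, 242, 245 and 302 CPM, against 114 ± 31.5 CPM (log2 1.23 ± 0.17, adjusted p = 0.00081). The ligands *Wnt5b* (log2 1.11 ± 0.21, adjusted p = 0.0098) and *Wnt11* (1.79 ± 0.39, adjusted p = 0.023), the secreted *Dkk3* (1.02 ± 0.25, adjusted p = 0.040) and the receptors *Fzd8* (log2 1.19 ± 0.23, adjusted p = 0.0097) and *Ror1* (0.71 ± 0.18, adjusted p = 0.048) rose as well. The genes that fell were *Lef1*, a nuclear effector of the pathway (-2.24 ± 0.35, adjusted p = 0.0026), and the antagonist *Dkk2* (-2.45 ± 0.55, adjusted p = 0.028, on 6 UMIs). With a library left out, *Sfrp2* kept its call in 4 of 4 fits, *Lef1* in 3, *Wnt9a*, *Wnt5b* and *Ror1* in 2, and *Wnt11*, *Dkk3*, *Fzd8* and *Dkk2* in 1.

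Of 11 joint interzone genes tested, 4 rose and 0 fell against Matn1 barcodes (median 0.86, 1 to 5 higher when a library was left out). They were *Wnt9a* and *Sfrp2*, both counted in the Wnt list too, the heparan sulfatase *Sulf1* (log2 1.30 ± 0.21, adjusted p = 0.0035) and the GATA-type repressor *Trps1* (0.73 ± 0.13, adjusted p = 0.0060). Against all others *Osr2* rose in addition. *Erg*, an interzone transcription factor, stood at 96.5, 113, 195 and 107 CPM, with a mean of 132 CPM in Matn1 barcodes, and the lubricant gene *Prg4* had 10 UMIs. Barcodes past the *Gdf5* limit, 7, 8, 9 and 26 by library, were under the minimum of 10 set for a unit in 3 libraries, so no test was run and values are given side by side. *Sulf1* stood at 499 CPM on average there against 226 CPM in the Barx1-Pthlh barcodes, *Sfrp2* at 788 against 271 CPM, *Gas1* at 636 against 372 CPM, *Pax9* at 23.0 against 78.0 CPM and *Bmpr1b* at 205 against 454 CPM.

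Among BMP and TGF-beta genes, 1 of 28 rose and 3 fell against Matn1 barcodes, *Gdf10* being the third of the latter. *Bmpr1b*, the BMP receptor of limb cartilage condensations, stood at 468, 535, 477 and 337 CPM, against 142, 208, 167 and 241 CPM (log2 1.27 ± 0.14 against all others, adjusted p = 0.00013, and also called against Matn1 barcodes). The BMP targets *Id1* (-0.72 ± 0.14, adjusted p = 0.011) and *Id3* (-0.44 ± 0.10, adjusted p = 0.030) fell, calls kept in 2 and 1 of 4 fits without a library. In the IGF pathway *Igf1* fell (-1.90 ± 0.30, adjusted p = 0.0027, on 18 UMIs) and *Igfbp7* rose (1.45 ± 0.21, adjusted p = 0.0015), among 9 genes tested. The Notch list had 1 lower gene of 12, the co-activator *Maml2* (-0.71 ± 0.17, adjusted p = 0.039, kept in 1 of 4 fits without a library). In the FGF list *Fgfr3* fell and 0 rose of 15. In the list of CCN and YAP target genes, *Ccn1* (-0.45 ± 0.11, adjusted p = 0.048) and *Ccn2* fell and *Wwtr1*, which encodes TAZ, rose (0.67 ± 0.14, adjusted p = 0.017) among 13, and each of these 3 calls was kept in 1 of 4 fits without a library. *Ccn2*, a matricellular protein the study follows, stood at 35.3, 27.7, 83.0 and 34.8 CPM, against 82.2, 46.7, 102 and 69.5 CPM (log2 -0.88 ± 0.20, adjusted p = 0.025, kept in 1 of 4 fits without a library).

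Of the tendon list, *Mkx* (log2 1.44 ± 0.33, adjusted p = 0.027) and *Col14a1* (1.61 ± 0.26, adjusted p = 0.0032) rose among 6 tested (0 to 2 when a library was left out, with *Mkx* called in 1 of 4 such fits), and of the perichondrium and fibroblast list *Lum* fell (-1.73 ± 0.24, adjusted p = 0.00085) and 0 rose among 13, all against Matn1 barcodes. Against all others *Lum* fell and *Pdgfra* (0.72 ± 0.18, adjusted p = 0.034) and *Fbn2* (0.48 ± 0.10, adjusted p = 0.014) rose, the latter calls each kept in 1 of 4 fits without a library. *Scx*, which marks tendon progenitors, stood at 28.2, 23.9, 29.0 and 42.8 CPM, with a mean of 17.3 CPM in Matn1 barcodes, and *Tnmd* had 4 UMIs. Immediate early and heat shock genes, a sign of handling, gave 2 higher (*Klf6* and *Btg2*) and 2 lower (*Hspe1* and *Dnajb1*) of 29, calls kept in 1 or 2 of 4 fits without a library.

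Neither S phase nor G2 and M phase genes were called against Matn1 barcodes. By edgeR 0 of 42 S phase genes (median -0.32, 7 at an unadjusted p under 0.05) and 0 of 52 G2 and M phase genes (median 0.16, 1 at an unadjusted p under 0.05) passed, and by DESeq2 0 of both. Fits without a library had 0 to 6 G2 and M genes called higher. The sum of the 52 G2 and M genes was 6640, 8512, 1756 and 5449 CPM, and in Matn1 barcodes 5012, 4781, 4834 and 4571 CPM. The tdT- replicate 1 library, with 13 barcodes, was the low value. *Cdkn1c*, a CDK inhibitor of the p21 family, stood at 2103, 2151, 2486 and 2338 CPM, against 2789 ± 171 CPM (log2 -0.38 ± 0.08, adjusted p = 0.020, kept in 2 of 4 fits without a library).

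**Figure D2:**
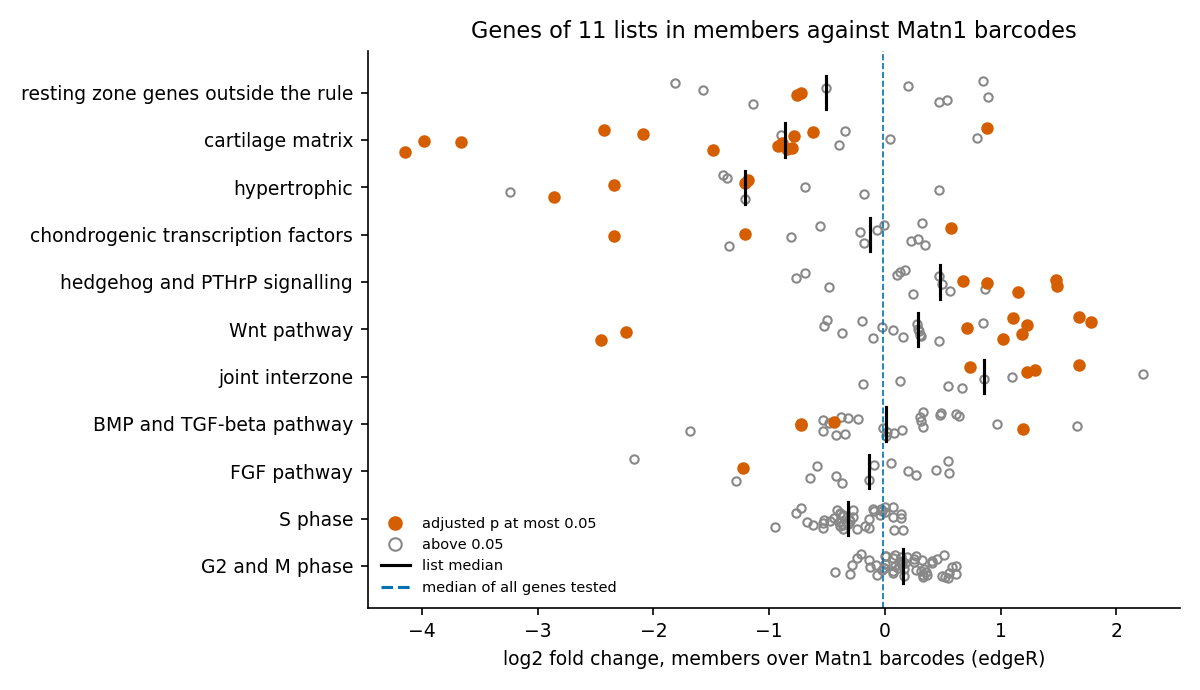
Log2 fold change of each tested gene of 11 lists in the Barx1-Pthlh barcodes (members) over Matn1 barcodes, from edgeR, with genes at an adjusted p of at most 0.05 in orange, list medians as black bars and the median of all 13261 genes as a dashed line. Of 18 cartilage matrix genes 12 lie below 0 in orange, and of 16 hedgehog and PTHrP signalling genes 5 lie above 0 in orange.

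The Barx1-Pthlh barcodes made up 5.67% of chondrocyte barcodes (97 of 1710, exact binomial 95% interval 4.62% to 6.88%). Their share was 9.01% in tdT+ replicate 1 (20 of 222, 5.59% to 13.6%) and 10.3% in tdT+ replicate 2 (45 of 438, 7.59% to 13.51%). It was 3.94% in tdT- replicate 1 (13 of 330, 2.11% to 6.64%) and 2.64% in tdT- replicate 2 (19 of 720, 1.60% to 4.09%). Both tdT+ libraries were above both tdT- libraries, but the order did not survive in collection 1 when every barcode was thinned to 10000 UMIs. The thinned shares were 6.63% and 12.6% in the tdT+ libraries and 6.88% and 5.25% in the tdT- libraries. The order held for barcodes of at least 10000 UMIs with all UMIs kept. Those shares were 8.772% and 11.73% in tdT+ and 5.208% and 3.002% in tdT-. It also held with a sum of at least 4 UMIs, and without the top 5% of Scrublet scores. The limits are absolute UMI counts, and tdT- replicate 2 had 16 members with all UMIs kept and 28 after thinning. Which limit let them in was not tested. Barcodes under 10000 UMIs were left out of the thinned shares and of those with all UMIs kept. At least 10000 UMIs were held by 171 of 222 and 341 of 438 chondrocyte barcodes in the tdT+ libraries. In the tdT- libraries 192 of 330 and 533 of 720 held as many. Among chondrocyte barcodes with an assigned genotype, those left out numbered 50 of 353 Exp tdT+, 86 of 448 Exp tdT-, 34 of 173 Ctl tdT+ and 71 of 286 Ctl tdT-.

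By genotype, the share was 8.94% in Exp replicate 1 (11 of 123) and 6.93% in Exp replicate 2 (47 of 678), and 6.44% in Ctl replicate 1 (17 of 264) and 5.64% in Ctl replicate 2 (11 of 195). All 4 intervals overlapped. These shares count only barcodes with an assigned genotype, among members and chondrocyte barcodes alike. In tdT- replicate 1 the Exp (4.44%) and Ctl (5.23%) shares were both above that of the whole library (3.94%). After thinning the Exp shares were 9.65% and 10.4% and the Ctl shares 5.17% and 5.06%. With barcodes of at least 10000 UMIs and all their UMIs kept, the Exp shares were 8.62% and 7.83% and the Ctl shares 7.82% and 5.14%. The genes of the rule were fitted by genotype over all chondrocyte barcodes as 8 units of library and genotype. *Matn1* was lower in Exp by 0.47 ± 0.09 on the log2 scale without being called (adjusted p = 0.078), *Barx1* differed by 0.52 ± 0.22 (adjusted p = 0.52) and *Pthlh* by -0.16 ± 0.29 (adjusted p = 0.94). Their part in the shares was not tested. A different number of cells of this kind and a different level of *Barx1* or *Matn1* RNA per cell cannot be told apart from the shares. The shares are a description without a test.

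**Figure D3:**
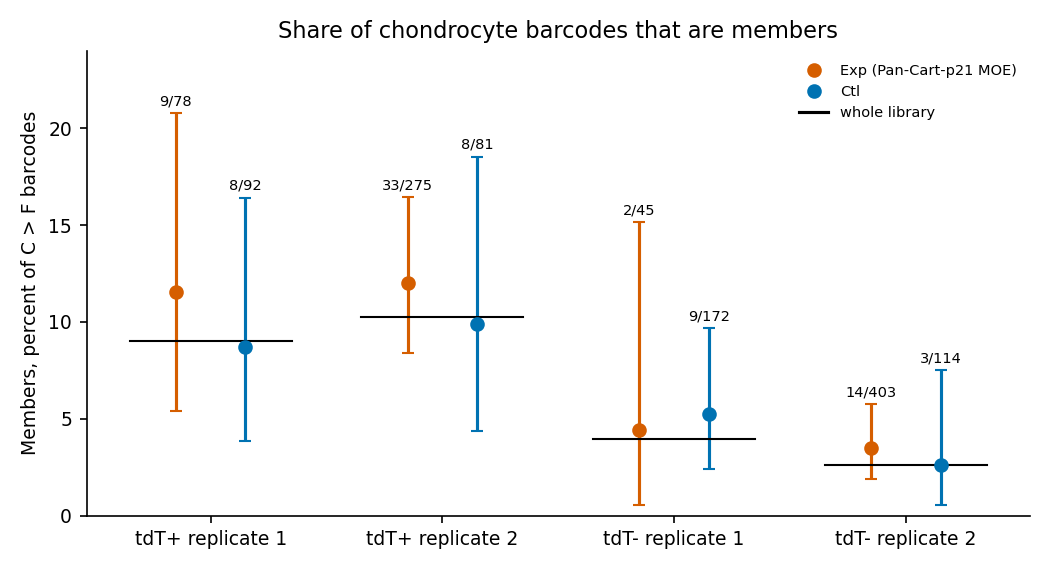
Share of chondrocyte (C > F) barcodes that are Barx1-Pthlh barcodes, in percent, by library and genotype, with exact binomial 95% intervals (counting error only) and the counts above each. Horizontal lines give whole libraries, barcodes with no genotype included, at 9.01% and 10.3% in tdT+ and 3.94% and 2.64% in tdT-.

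The transgene was checked first by genotype. WPRE, an RNA-stabilising element that both the p21 transgene and the tdTomato reporter carry, counts the reporter too where that is on. It stood at 1193, 1558, 770 and 1103 CPM in the 4 Exp units of all chondrocyte barcodes, and at 624 and 446 CPM in the tdT+ and 105 and 64.3 CPM in the tdT- Ctl units. Exp was above Ctl in every library, but WPRE was not called by edgeR in the genotype fit over all chondrocyte barcodes. That stayed so in 12 of 17 alternatives. In the Barx1-Pthlh barcodes, summed per embryo pool, WPRE was at 599 and 1096 CPM in Exp and 404 and 334 CPM in Ctl (log2 1.16 ± 0.29, edgeR adjusted p = 0.49). It stayed uncalled in 12 of 14 alternatives and was called in 2. Within tdT+ replicate 1 the order was the opposite, with 593 CPM in 9 Exp barcodes and 807 CPM in 8 Ctl barcodes. *Cdkn1a*, the endogenous p21 gene, had 84 UMIs in the 97 barcodes, of which 45 came from the 8 Ctl barcodes of tdT+ replicate 1. It stood at 21.9 and 22.9 CPM in the Exp pools and 136 and 17.6 CPM in the Ctl pools. The pools of the genotypes overlapped, and whether the 3′ reads of the transgene count as *Cdkn1a* was not tested.

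The genotype comparison asked which genes changed in the Barx1-Pthlh barcodes with p21 overexpression, and was fitted on 4 embryo pools of 11, 47, 17 and 11 barcodes (Exp replicates 1 and 2, Ctl replicates 1 and 2). By edgeR 0 of 5596 genes were called (0%), with 410 at an unadjusted p under 0.05, and DESeq2 called 2. Leaving out a pool gave 1 to 56 calls, the most without Exp replicate 2. The lowest p-values, none of which passed, were for *Gm10635*, at 29.2 and 28.4 CPM in Exp and 342 and 136 CPM in Ctl (log2 -3.13 ± 0.46, adjusted p = 0.26), and *Caprin2*, at 14.6 and 30.3 CPM in Exp and 147 and 145 CPM in Ctl (-2.56 ± 0.38, adjusted p = 0.26). *Tmtc2* (-1.57 ± 0.29), *Ube2c* (1.33 ± 0.26) and *Cenpa* (1.69 ± 0.33) followed, each at an adjusted p of 0.45. In these 5 genes the pools of the genotypes did not overlap, which picking the lowest p-values itself favours. How many of all genes tested had no overlap was not counted.

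*Ccn2* and *Cytl1* had values as follows. *Ccn2* was at 40.2 and 19.3 CPM in the Exp pools and 65.0 and 26.4 CPM in the Ctl pools (log2 -0.93 ± 0.58, adjusted p = 0.76), on 61 UMIs in all 4. The log2 difference ran from -1.35 without Ctl replicate 2 to -0.0022 without Ctl replicate 1, with -0.30 without Exp replicate 2, and was -0.37 with library as a block. Over all chondrocyte barcodes it fell with p21 overexpression (-1.35 ± 0.13, adjusted p = 0.0032), among 19 of 12782 genes called (0.149%). That fit took 8 units of library and genotype as independent, although tdT+ and tdT- units of a pool share embryos. With the fractions of a pool summed, *Ccn2* differed by -1.465 (adjusted p = 0.027) and was the 1 gene called. The *Ccn2* difference in Barx1-Pthlh barcodes minus that in Matn1 barcodes was 0.56 ± 0.51 (adjusted p = 0.94), so the genotype effects were not shown to differ. *Cytl1* was at 303 and 144 CPM in Exp and 229 and 304 CPM in Ctl (-0.35 ± 0.37, adjusted p = 0.89).

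No gene of any list was called by genotype. Of the lists with 10 or more genes tested, 3 had a median farthest from 0. The dissociation stress genes had a median log2 difference of -0.40 over 25 tested, the hypoxia and glycolysis genes -0.46 over 12, and the G2 and M phase genes 0.89 over 40 (-0.02 over all genes). The stress genes summed to 22380 and 12520 CPM in Exp and 20080 and 20730 CPM in Ctl, so that Exp replicate 2 stood apart, and their median was 0.09 without that pool. Without Exp replicate 1 it was -0.81, with 7 stress genes called lower. The hypoxia and glycolysis median ran from -0.64 to -0.42 without a pool, with sums of 3710 and 4621 CPM in Exp and 5147 and 4357 CPM in Ctl. The G2 and M sum was 5865 and 8030 CPM in the Exp pools and 4350 and 3705 CPM in the Ctl pools of the Barx1-Pthlh barcodes, without overlap. In Matn1 barcodes it was 4796 and 4489 CPM in Exp and 4939 and 5084 CPM in Ctl. The median log2 difference was 0.51 to 1.13 when a pool was left out, with 0 to 4 genes called higher. The pools mixed the fractions unevenly, with 9 tdT+ and 2 tdT- barcodes in Exp replicate 1, 33 and 14 in Exp replicate 2, 8 and 9 in Ctl replicate 1 and 8 and 3 in Ctl replicate 2, and the sums were higher in the tdT+ libraries. The part of that mix in the difference was not tested. Within libraries the Exp barcodes had the higher sum in tdT+ replicate 2 (8942 against 4098 CPM) and tdT- replicate 2 (5408 against 2453 CPM) and the lower in tdT+ replicate 1 (6619 against 7169 CPM) and tdT- replicate 1 (1372 against 1790 CPM), so the difference did not hold within collection 1. Per barcode, the median G2 and M level was 1794 and 2085 CPM in the Exp pools and 1705 and 1359 CPM in the Ctl pools and the highest barcode 20380, 24760, 17070 and 14920 CPM in the same order. Tested against the genotype effect in Matn1 barcodes, 0 of 12210 genes differed by edgeR (0%), with 716 at an unadjusted p under 0.05 and 0 by DESeq2. When a pool was left out, 1 to 12 of the G2 and M genes were called higher in that test. The lowest p-values were for *Ube2c*, a mitotic ubiquitin-conjugating enzyme (1.55 ± 0.26), *Csmd3* (-2.38 ± 0.42), *Cdkn1c* (0.88 ± 0.16), *Cenpa*, the centromeric histone (1.94 ± 0.36) and *Stmn1* (1.04 ± 0.20), each at an adjusted p of 0.22.

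**Figure D4:**
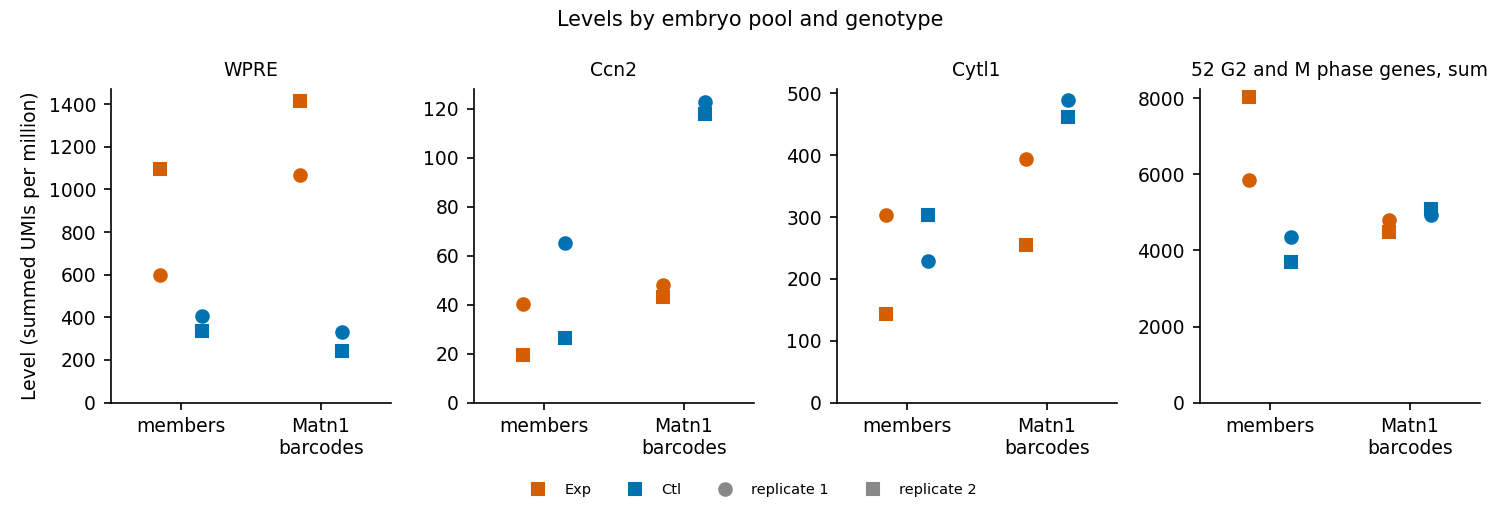
Levels in CPM (summed UMIs per 1000000) of WPRE, *Ccn2*, *Cytl1* and the sum of 52 G2 and M phase genes in 4 embryo pools, Exp orange and Ctl blue, circles for replicate 1 and squares for replicate 2, in the Barx1-Pthlh barcodes (members) and in Matn1 barcodes. *Ccn2* in Matn1 barcodes lies at 47.9 and 43.3 CPM in Exp and 123 and 118 CPM in Ctl, while the pools of the members overlap.

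The tdT fraction asked whether Barx1-Pthlh barcodes of the labelled *Gli1* lineage differed from the rest. *tdTom* itself stood at 28.2 and 30.5 CPM in the tdT+ libraries, on 44 UMIs, and at 0 in both tdT- libraries. By edgeR 0 of 6486 genes were called (0%), *tdTom* included (adjusted p = 0.55), with 414 at an unadjusted p under 0.05, and DESeq2 called 2. Leaving out a library gave 3 to 276 calls, the most without tdT- replicate 2, which left the 13 barcodes of tdT- replicate 1 alone in their arm. The lowest p-values were for the collagen *Col25a1*, at 32.9 and 81.1 CPM in tdT+ and 390 and 289 CPM in tdT- (log2 -2.47 ± 0.36), *Runx1t1* at 402 and 379 against 162 and 166 CPM (1.22 ± 0.21), *Ect2* at 68.2 and 92.5 against 8.30 and 16.1 CPM (2.63 ± 0.45), *Il1rapl2* (2.13 ± 0.37) and *Egr1* at 1214 and 889 against 2121 and 1830 CPM (-0.94 ± 0.17), each at an adjusted p of 0.43. In each of these the libraries of the fractions did not overlap, which again is favoured by picking the lowest p-values. The share of all genes tested without overlap was not counted. The 47 G2 and M phase genes tested had a median log2 difference of 1.2 towards tdT+ (-0.01 over all genes), with 0 called. That median ran from 0.59 to 3.26 when a library was left out, with 35 genes called higher without tdT- replicate 2. Their sums, 6640 and 8512 CPM in tdT+ and 1756 and 5449 CPM in tdT-, did not overlap. The median per barcode, 2419 and 1818 CPM in tdT+ and 1705 and 2112 CPM in tdT-, did overlap, and the highest barcode of tdT- replicate 1 was at 6079 CPM against 18670 to 25820 CPM in the other libraries. The interaction of genotype and fraction, on 8 units of 2 to 33 barcodes, had 0 of 4371 genes called by edgeR (0%), 233 at an unadjusted p under 0.05 and 4 by DESeq2. With the library as a replicate block, a fit that was not planned, 9 genes were called (7 higher, 2 lower).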

How the data were processed

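The 4 libraries were made with 10x Chromium 3′ chemistry. Per the labels and the study's methods, the authors aligned reads with CellRanger 7.2.0 to GRCm38 with tdTom, CreERT2 and WPRE added, and the deposited values are raw UMI counts of each gene in each barcode. Whether intronic reads were counted is not given in the sources used here. The study also used CellBender and DoubletFinder, and nothing in the counts shows that these had been applied. Genotypes come from the sex multiplexing in the study's methods, as the labels give libraries of both genotypes. A barcode needed at least 2 sex-gene UMIs, 80% of them of 1 sex.

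The libraries held 20770520 (tdT+ replicate 1), 31871634 (tdT+ replicate 2), 11945062 (tdT- replicate 1) and 39435830 (tdT- replicate 2) UMIs, and the Barx1-Pthlh barcodes 425013, 1048161, 240937 and 373798 of them. Scrublet (scanpy 1.11.5) called 7 of 3640 barcodes. These calls were not used, and the top 5% of scores, with 4 of the 97 barcodes, were left out as an alternative.

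UMIs were summed per class and library, pool or unit and tested with edgeR 4.0.16 (R 4.3.3; filterByExpr, TMM, quasi-likelihood test, Benjamini-Hochberg over all genes, called at an adjusted p of at most 0.05), with DESeq2 1.42.0 and limma 3.58.1 as alternatives. Plain CPM values use summed totals. The planned minimum of 10 barcodes per unit of library and genotype left only 2 units, both Exp. The main fits were therefore the listed alternatives of libraries as blocks, embryo pools (2 against 2) or libraries (2 against 2), and the interaction used units of any size. That change was made after the barcode counts were seen. A test against *Gdf5* barcodes was not run, with under 10 barcodes in 3 libraries.

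The members, the 29 gene lists and the tests were chosen with earlier results of these data known. Named were the rule's genes, the markers given for the group, transgene features, *Cdkn1a*, *Ccn2*, *Gli1*, examples from the lists, up to 5 genes each way with the lowest p and the 10 genes most like the selecting genes. Coordinates are of GENCODE M21 (GRCm38). Replicates are 2 collections, and tdT+ and tdT- cells of a collection share embryos, which is where the pairing comes from. Deviations of tdT+ and tdT- libraries of a collection correlated at 0.086 over 6484 genes. Intervals cover counting error only. Results of the Schwann and neural list are not reported here.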

Additional observations from a re-analysis of the deposited data

Results flagged for a closer look

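Groups of 4 units of library and genotype were tested for a sample far from the others, in 18 groups, of which chance alone would mark about 1 in 20. *Cdkn1a* over all chondrocyte barcodes was low in 1 Exp unit, tdT+ replicate 1, at 44.15 CPM, with the other 3 Exp units between 60.32 and 62.34 CPM. *Gdf5* over all chondrocyte barcodes was high in 1 of the 4 Ctl units, at 15.18 CPM, with the others between 4.853 and 6.234 CPM.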

How the results depend on the processing

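Without the filter on low counts, 1263 genes were called against all other chondrocyte barcodes (746 as reported) and 858 against Matn1 barcodes (391), 71 by genotype, 91 by tdT fraction, 16 for their interaction, 56 for the genotype effect minus that in Matn1 barcodes and 462 by genotype over all chondrocyte barcodes (19 as reported). Leaving out a library or pool gave 202 to 922 and 63 to 515 genes in the first 2 comparisons, 1 to 56 by genotype, 3 to 276 by fraction, 10 to 127 for the difference of genotype effects and 2 to 14 over all chondrocyte barcodes. A lone pool or library in an arm is there assumed to vary like the others. The cause of these shifts was not tested.

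The units of library and genotype with at least 10 barcodes, both of them Exp replicate 2 (listed as a single embryo), gave 456 genes against all others, and thinning every barcode to 3000 UMIs gave 154. limma voom with quality weights gave 726 against Matn1 barcodes. DESeq2 called 2 genes by genotype, 2 by fraction, 4 for their interaction and 106 over all chondrocyte barcodes. With barcodes from 10000 UMIs, 6 genes were called by genotype and 109 for the difference of genotype effects. Over all chondrocyte barcodes, 53 were called without the top Scrublet scores, 1 with the fractions of a pool summed and 35 by limma voom with pool as a random block. The share of Barx1-Pthlh barcodes, 5.67%, was 7.74% after thinning and 3.28% with a sum of at least 4 UMIs. It was 6.55% with barcodes of at least 10000 UMIs and all their UMIs kept.

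Without the replicate block of libraries, 1051 and 566 genes were called against all others and Matn1 barcodes. For the tdT fraction, collection as a replicate block gave 0 genes and the embryo pool as a replicate block 1. With the library as a replicate block, 0 were called by genotype, 9 for the interaction and 38 over all chondrocyte barcodes. Among named genes, the direction turned for *Igfbp5* (-0.072) and *Wwtr1* (-0.32) after thinning to 3000 UMIs, and for *Btg2* with those units of Exp replicate 2 (-0.33 against all others, -0.26 against Matn1 barcodes). Over the alternatives, the named genes kept direction and call 995 times and lost the call 264 times against all others, and 671 and 168 times against Matn1 barcodes. The planned fits on units of at least 10 barcodes for genotype, fraction and interaction could not be made, with units of Exp replicate 2 alone. Fits against *Gdf5* barcodes were not run, since 3 libraries were under that minimum. Several alternatives (units of any number of barcodes, voom with quality weights, collection as a block) were chosen after seeing the data. With 13 to 45 barcodes per library, a gene under a few CPM rests on single UMIs.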
